A study of Mus musculus with 10 samples.

Results

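The fibroblast growth factor (FGF) genes described here are 10 rows of the count table, whose Ensembl gene identifiers map to the ligands *Fgf7*, *Fgf9*, *Fgf10* and *Fgf18*, the receptors *Fgfr1* to *Fgfr4*, and the binding proteins *Fgfbp1* and *Fgfbp3*. They were taken by name, and are 10 of the 53465 genes in the table. All 10 passed the filter on low counts, which left 16426 genes for testing. Of the 10, *Fgfbp1* was called lower in *mEC1dup/dup* than in WT pinna, a call that several alternative fits did not make. The 4 ligands, the 4 receptors and *Fgfbp3* did not pass the test, which does not show that their levels were alike.

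RNA-seq was performed on pinna prominences, the swellings that form the external ear, which were dissected from 5 wild-type (WT) and 5 *mEC1dup/dup* mouse embryos at E14.5, 1 library each. The *mEC1dup/dup* knock-in embryos are homozygous for an additional copy of mEC1, an enhancer of the homeobox gene *Hmx1*, and WT embryos carry no added copy. Mice were on a C57BL/6J background with no treatment stated, and the duplication is present in every cell rather than driven by a Cre line. Per the study's methods, replicates were siblings from separate litters, but which libraries share a litter is not given in the sources used here, so the p-values measure the spread between these libraries.

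Total counts per library ranged from 17536112 to 18265354 in WT and from 17461544 to 18462073 in *mEC1dup/dup*. *Hmx1*, the gene the enhancer acts on, had 376 to 526 counts in WT and 976 to 1356 in *mEC1dup/dup*, with every *mEC1dup/dup* library above every WT library. Beyond genotype, the groups differed in *Xist*, which had at most 5 counts in every WT library, 2096 to 19040 in *mEC1dup/dup* replicates 1 to 4 and 0 in replicate 5. They also differed in the share of globin counts on embryonic globin genes, which was 18.4% to 23.3% in WT and 32.5% to 35.6% in *mEC1dup/dup*. *Xist*, which is made in female cells, and the embryonic globin share, which falls as erythropoiesis matures, therefore move with genotype in these libraries. Stage and genotype cannot be told apart here, and sex by *Xist* departs from genotype only in *mEC1dup/dup* replicate 5. For each of the 10 genes the log2 fold change is therefore also given with *Xist* or the globin share as a covariate in edgeR.

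FGF ligands are secreted proteins that bind receptor tyrosine kinases together with heparan sulfate chains on the cell surface, and the bound receptors signal through the adaptor FRS2 and the RAS-ERK cascade. FGF7 and FGF10 are typically made by mesenchyme and act on the epithelial splice form of FGFR2, whereas FGF9 and FGF18 act mainly on mesenchymal receptor forms, and FGF18 and FGFR3 are known regulators of cartilage. The secreted carriers FGFBP1 and FGFBP3 bind FGFs held in the matrix and release them from heparan sulfate. FGF signalling is used in the outgrowth and epithelial-mesenchymal exchange of the embryonic face and ear. Gene counts do not separate the splice forms of the receptors.

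HMX1 is known to bind the hexamer CAAGTG, so the promoters of the 10 genes were searched for it on both strands (its reverse complement is CACTTG). The window ran from 250 bases before to 50 bases after the start of the canonical transcript in GRCm39. CAAGTG is also an E-box, the CANNTG form read by other factors. The hexamer occurred in 3 of 10 promoters, those of *Fgfbp1*, *Fgf7* and *Fgf10*, and in 1836 of 14477 promoters of tested protein-coding genes (12.7%). It began 1 base before the start of *Fgfbp1*, 177 bases before that of *Fgf7* and 120 bases before that of *Fgf10*. The first 280 bases of the windows of *Fgfbp1* (chr5:44139122-44139401, minus strand) and *Fgf7* (chr2:125876328-125876607, plus strand) are shown 5′ to 3′ because these genes had the smallest p-values of the 10, with the hexamer in capitals. Whether 3 of 10 exceeds the share over all genes was not tested. For its downregulated genes as a set, the study found the HMX1 motif not enriched in promoters or cis-regulatory elements. A match describes these letters only, and no binding was measured here.
Fgfbp1: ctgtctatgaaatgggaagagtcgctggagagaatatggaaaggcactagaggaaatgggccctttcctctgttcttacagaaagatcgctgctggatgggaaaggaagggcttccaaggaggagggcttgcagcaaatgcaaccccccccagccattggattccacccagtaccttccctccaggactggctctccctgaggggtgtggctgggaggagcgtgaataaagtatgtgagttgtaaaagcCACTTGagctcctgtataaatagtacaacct
Fgf7: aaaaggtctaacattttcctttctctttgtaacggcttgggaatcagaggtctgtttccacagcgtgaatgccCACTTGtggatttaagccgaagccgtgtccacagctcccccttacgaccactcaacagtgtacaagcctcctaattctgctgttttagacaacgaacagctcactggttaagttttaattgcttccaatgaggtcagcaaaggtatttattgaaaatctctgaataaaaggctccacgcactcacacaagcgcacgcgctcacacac

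In the comparison of *mEC1dup/dup* with WT, a gene was called when its adjusted p (edgeR's quasi-likelihood test, Benjamini-Hochberg over all tested genes) was at most 0.05 and its average log2 CPM at least 1, where CPM is counts per 1000000 counts of a library after scaling by edgeR's trimmed mean of M-values (TMM). Called lower were 1 of the 10 FGF genes and 297 of all 16426 genes (1.81%). Called higher were 0 of the 10 and 137 of all genes (0.834%). An unadjusted p under 0.05 in edgeR was reached by 2 of the 10 genes, *Fgfbp1* and *Fgf7*, both with negative values, and by 2658 of all genes (16.2%), so the count in the 10 is near that of all genes. DESeq2's Wald test and limma-voom also called 0 of the 10 higher. The 10 log2 fold changes had a median of -0.12, with 8 negative and 2 positive, and the median of all tested genes was -0.00415. None of the 10 had groups that did not overlap, as against 833 of all genes (5.07%). With 1 call among 10 genes, the share called cannot be read as a property of the family.

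**Figure D1:**
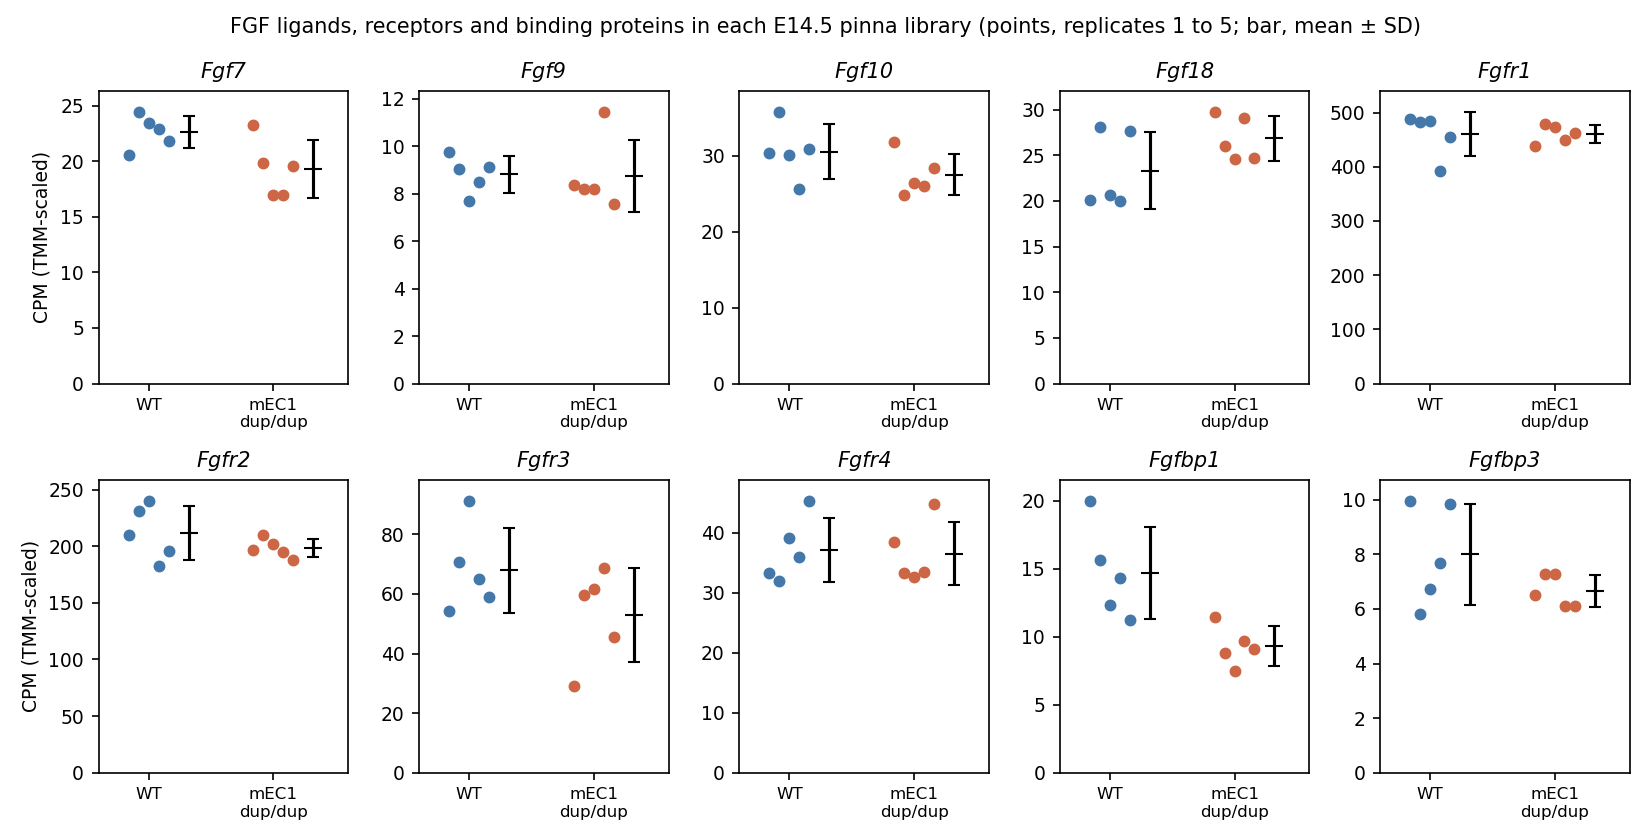
CPM (scaled by TMM; vertical axes start at 0) of the 10 genes in each library, WT in blue and *mEC1dup/dup* in orange, with points for replicates 1 to 5 and a bar for the mean ± SD. *Fgfbp1* is the panel where the groups are most nearly apart: 4 of 5 *mEC1dup/dup* libraries are below every WT library, as for *Fgf7*. In addition, 4 of 5 WT libraries of *Fgfbp1* are above every *mEC1dup/dup* library, against 2 of 5 for *Fgf7*.

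*Fgfbp1* (ENSMUSG00000048373, chr5:44136200-44139151, minus strand) encodes a heparin-binding carrier made mainly by epithelia. Its WT libraries had 19.9, 15.6, 12.4, 14.3 and 11.2 CPM for replicates 1 to 5, from 345, 282, 220, 258 and 203 counts. The *mEC1dup/dup* libraries had 11.4, 8.82, 7.44, 9.71 and 9.10 CPM, from 200, 160, 137, 180 and 168 counts. The groups overlapped by a single library pair, since *mEC1dup/dup* replicate 1 was just above WT replicate 5, and the 5 *mEC1dup/dup* values were below the WT median. The mean was 14.7 ± 3.39 CPM in WT and 9.30 ± 1.45 CPM in *mEC1dup/dup* (SD, n = 5 each). The log2 fold change was -0.66 (SE 0.15, 95% interval -0.99 to -0.33, edgeR adjusted p = 0.0401), a change of -36.7% with an interval from -49.7% to -20.3%. By p it was gene 362 of all tested.

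The call for *Fgfbp1* lies close to the threshold and depends on the libraries included. It was made in 4 of the 10 fits that left out a library. The edgeR adjusted p of *Fgfbp1* was 0.0864 without WT replicate 1, 0.0947 without WT replicate 2, and 0.106, 0.115, 0.0745 and 0.0756 without *mEC1dup/dup* replicates 2, 3, 4 and 5. The log2 fold change stayed between -0.74 and -0.52 over those 10 fits. Limma-voom gave an adjusted p of 0.0501 for *Fgfbp1*. When *Xist* was a covariate, its log2 fold change was -0.69 (edgeR adjusted p = 0.427), and when the globin share was the covariate it was 0.54 (SE 0.59, adjusted p = 0.918). The *mEC1dup/dup* library without *Xist* counts, replicate 5, had 9.10 CPM of *Fgfbp1*, which is also below every WT library. That is a single library, and its embryonic globin share (32.5%) lay with the other *mEC1dup/dup* libraries. The part of sex or stage in the *Fgfbp1* difference was not tested.

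Epithelial genes were also lower in the *mEC1dup/dup* libraries, in part of the lists read. The summed CPM of 6 pan-epithelial genes (*Epcam*, *Cdh1*, *Perp*, *Krt8*, *Krt18* and *Cldn4*) was 315 to 496 in WT and 275 to 302 in *mEC1dup/dup*, with 1 of 6, *Perp*, called lower, 3 negative and 3 positive. For 6 basal epidermal genes, which include the keratins *Krt5* and *Krt14*, the sum was 704 to 1249 in WT and 535 to 758 in *mEC1dup/dup*. All 6 had negative log2 fold changes and 2 were called lower, *Krt5* (-0.69) and *Krt14* (-0.64). The 7 suprabasal genes, which mark differentiating keratinocytes, had a sum of 165 to 489 in WT and 58.2 to 80.8 in *mEC1dup/dup*, and 6 of 7 were called lower. Of all tested genes, 1.81% were called lower. The 7 include *Krt77*, *Dmkn* and *Krtdap*, which the study also names from its bulk RNA-seq. As the lists were chosen with earlier results of these data known, their counts of calls are descriptions only. No gene of these 3 lists was at 0 in any library. In whole tissue, fewer cells of a type and less RNA per cell cannot be told apart.

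*Fgfbp1* was therefore also measured relative to the epithelial genes of the same library. Its log2 ratio to the pan-epithelial sum was -4.70 ± 0.14 in WT and -4.95 ± 0.18 in *mEC1dup/dup* (SD, n = 5 each), a difference of -0.25 against the log2 fold change of -0.66 for *Fgfbp1* itself. The difference did not pass the two-sided exact permutation test after adjustment over the 3 ratios computed (p = 0.0476, adjusted p = 0.143). With the basal epidermal sum as denominator the difference of *Fgfbp1* was -0.07 (exact permutation adjusted p = 0.556). Without *mEC1dup/dup* replicate 1 the pan-epithelial ratio differed by -0.32 (exact permutation adjusted p = 0.0476). The lower pan-epithelial sum came mainly from *Perp* (157 to 90.8 CPM) and *Cdh1* (97.1 to 71.3 CPM, not called), while *Epcam* (53.7 to 55.3 CPM), *Krt8* (15.5 to 16.1 CPM) and *Krt18* (15.0 to 17.1 CPM) had means no lower in *mEC1dup/dup*, so the size of the ratio depends on the genes summed. The part of epithelial RNA content in the *Fgfbp1* difference was not tested.

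**Figure D2:**
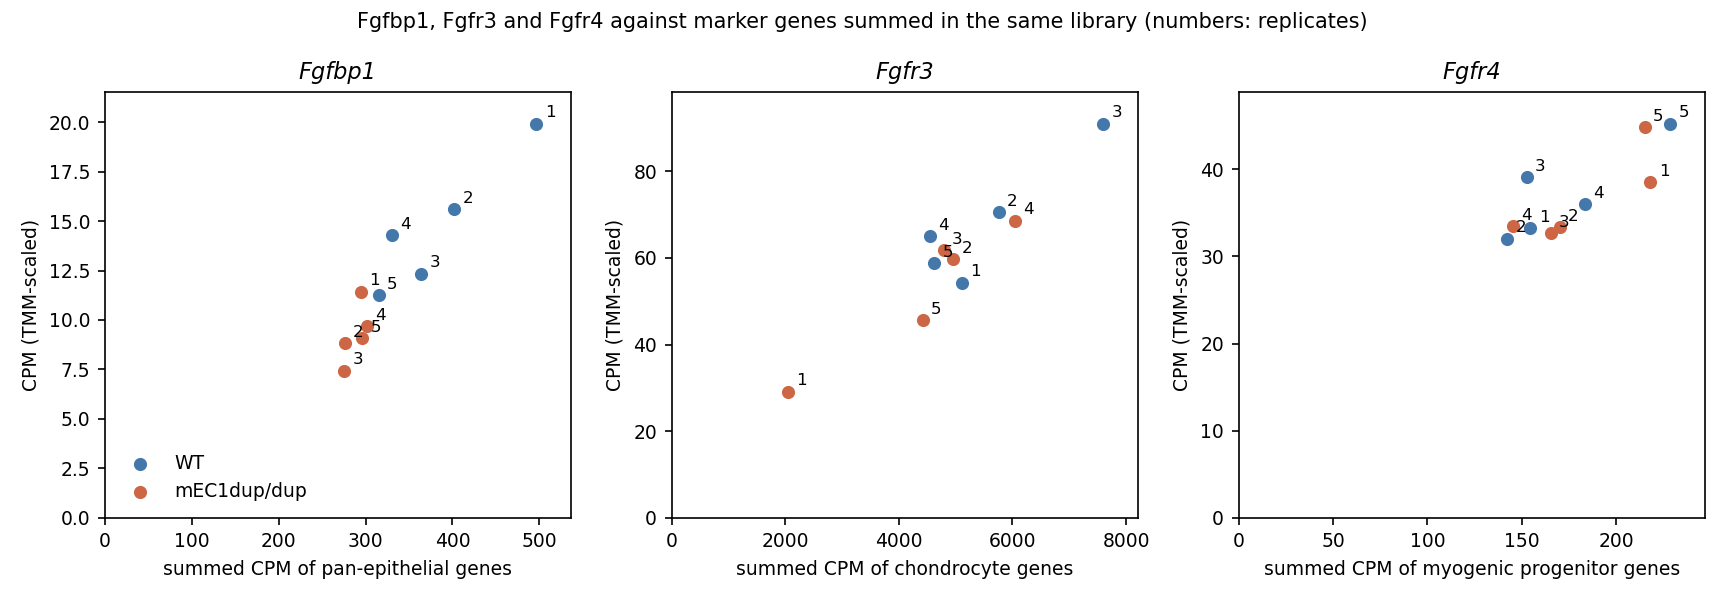
CPM of *Fgfbp1*, *Fgfr3* and *Fgfr4* (vertical axes) against the summed CPM of pan-epithelial, chondrocyte and myogenic progenitor genes in the same library (horizontal axes); points are libraries numbered by replicate, and all axes start at 0. In the left panel the WT libraries extend from 315 to 496 summed CPM and the *mEC1dup/dup* libraries lie at 275 to 302, and in the middle panel *mEC1dup/dup* replicate 1 is lowest on both axes.

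*Fgfbp3* (chr19:36894950-36897147, minus strand), the other carrier, had 9.94, 5.81, 6.74, 7.70 and 9.86 CPM in WT and 6.52, 7.28, 7.28, 6.10 and 6.12 CPM in *mEC1dup/dup*. Its WT libraries were spread on both sides of the *mEC1dup/dup* libraries, with 3 above and 1 below all of them. The log2 fold change of *Fgfbp3* was -0.27 (95% interval -0.59 to 0.06, edgeR adjusted p = 0.431), so a decrease as large as the estimate for *Fgfbp1* lies just outside its interval. Without WT replicate 1 it was -0.18, with *Xist* as covariate -0.39 (SE 0.25) and with the globin share -0.37 (SE 0.67).

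Among the 4 ligands of the set, *Fgf7* (chr2:125876578-125934218, plus strand), a mesenchymal growth factor for keratinocytes, had the smallest p. Its WT libraries had 20.6, 24.4, 23.4, 22.9 and 21.8 CPM and its *mEC1dup/dup* libraries 23.3, 19.8, 16.9, 17.0 and 19.6 CPM. Thus 4 of 5 *mEC1dup/dup* libraries were below every WT library, and replicate 1 was within the WT range. The log2 fold change of *Fgf7* was -0.23 (SE 0.09, 95% interval -0.42 to -0.04) with an unadjusted p of 0.0224 in edgeR, which did not pass adjustment over all genes (adjusted p = 0.213). Without *mEC1dup/dup* replicate 1 it was -0.30 with an edgeR adjusted p of 0.0561. It was -0.24 (SE 0.14) with *Xist* and -0.38 (SE 0.40) with the globin share as covariate.

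*Fgf10* (chr13:118806327-118928672, plus strand), the paralogue of *Fgf7* that binds the same epithelial receptor form and is known for bud outgrowth, had 30.4, 35.8, 30.1, 25.6 and 30.9 CPM in WT. In *mEC1dup/dup* it had 31.9, 24.9, 26.4, 26.1 and 28.4 CPM, and the ranges overlapped over most of their width. Its log2 fold change was -0.15 (95% interval -0.34 to 0.04, edgeR adjusted p = 0.449), and -0.08 without WT replicate 2. The *Xist* covariate gave -0.13 (SE 0.14), and the globin share turned the sign to 0.11 (SE 0.40). To compare the paralogues within a library, the log2 ratio of *Fgf10* to *Fgf7* was computed, which was 0.43 ± 0.17 in WT and 0.51 ± 0.13 in *mEC1dup/dup* (SD, n = 5 each). The difference of 0.09 was within the spread of either group (two-sided exact permutation p = 0.389, adjusted p = 0.389 over 3 ratios), and it was 0.02 without WT replicate 4, 0.06 without *mEC1dup/dup* replicate 3 and 0.13 without *mEC1dup/dup* replicate 2. The exons of *Fgf10* overlap those of an antisense gene over 2.49% of their length. The library kits named are unstranded, so reads from that stretch cannot be assigned to either gene.

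*Fgf18* (chr11:33067014-33097828, minus strand), a ligand of cartilage and bone development, had a positive log2 fold change, which was 0.12 (SE 0.17) with *Xist* as covariate and turned to -0.33 (SE 0.49) with the globin share. It had 20.1, 28.1, 20.7, 19.9 and 27.7 CPM in WT and 29.7, 26.1, 24.6, 29.1 and 24.8 CPM in *mEC1dup/dup*. The WT libraries comprised 3 at 19.9 to 20.7 CPM and 2 at 27.7 and 28.1 CPM, and the *mEC1dup/dup* libraries lay from between these to just above them. Its log2 fold change was 0.20 (95% interval -0.03 to 0.44, edgeR adjusted p = 0.401).

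*Fgf9* (chr14:58308004-58350316, plus strand), which signals from epithelium and mesothelium to mesenchyme in other organs, had the lowest CPM of these 4 ligands. Its WT libraries had 9.76, 9.02, 7.69, 8.48 and 9.14 CPM, and its *mEC1dup/dup* libraries had 8.34, 8.21, 8.20, 11.4 and 7.58 CPM. A single library, *mEC1dup/dup* replicate 4 with 212 counts, stood above the other 9, which had 137 to 169 counts. The log2 fold change of *Fgf9* was -0.01 (95% interval -0.27 to 0.25, edgeR adjusted p = 0.979) and -0.12 without that library. It was -0.11 (SE 0.20) with *Xist* and 0.20 (SE 0.55) with the globin share as covariate.

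**Figure D3:**
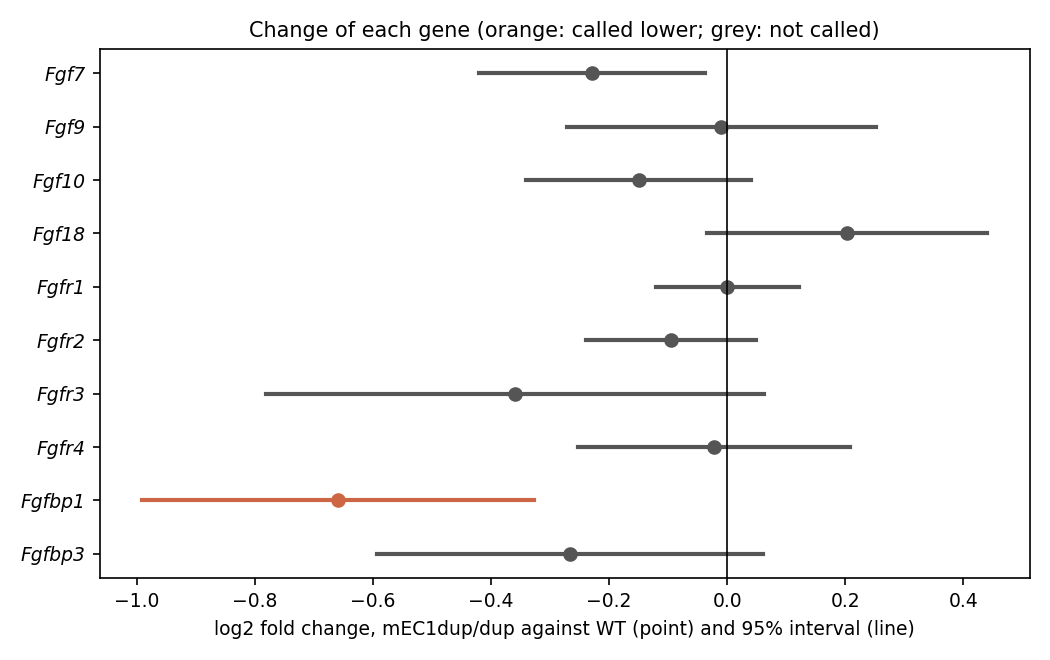
Log2 fold change of each gene in *mEC1dup/dup* against WT (horizontal axis; points) with its 95% interval (lines) from edgeR's quasi-likelihood fit, n = 5 libraries per genotype. *Fgfbp1* at -0.66 (orange) is the only gene called; the interval of *Fgf7* excludes 0 before adjustment, and those of the other genes include it.

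Of the 10 genes, *Fgfr1* and *Fgfr2* gave the narrowest intervals. *Fgfr1* (chr8:26003670-26066824, plus strand), the main mesenchymal receptor, had 488, 483, 484, 392 and 455 CPM in WT and 438, 480, 473, 449 and 462 CPM in *mEC1dup/dup*. All *mEC1dup/dup* libraries lay within the WT range, and the log2 fold change was 0.0003 (95% interval -0.12 to 0.12, edgeR adjusted p = 0.999), an interval of -8.06% to 8.82%. With *Xist* as covariate the value of *Fgfr1* was -0.0119 (SE 0.09), but with the globin share it was 0.39 (SE 0.23). The SE was 0.056 in the fit with genotype alone, so the narrow interval does not hold with either covariate. With the replicate block *Fgfr1* was at 0.0041 (SE 0.046). *Fgfr2* (chr7:129763471-132725079, minus strand), whose epithelial form receives FGF7 and FGF10, had 210, 231, 240, 182 and 196 CPM in WT and 197, 210, 202, 195 and 188 CPM in *mEC1dup/dup*. Again the *mEC1dup/dup* values fell inside the WT range, with a log2 fold change of -0.10 (95% interval -0.24 to 0.05, edgeR adjusted p = 0.532). Without WT replicate 2 it was -0.06, without WT replicate 3 it was -0.05 and without WT replicate 4 it was -0.15. *Fgfr2* was at -0.18 (SE 0.10) with the *Xist* covariate and turned to 0.22 (SE 0.30) with the globin share. The annotated interval of *Fgfr2* is long because some of its transcript models share exons with *Ctbp2* on the same strand, 2.77% of the exon length of *Fgfr2*.

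*Fgfr3* (chr5:33879018-33894412, plus strand), a receptor of growth cartilage and epithelium, was the most variable receptor, with a coefficient of variation of 21.0% in WT and 29.7% in *mEC1dup/dup*. Its WT libraries had 54.3, 70.6, 91.0, 65.1 and 58.9 CPM, and its *mEC1dup/dup* libraries had 29.1, 59.7, 61.8, 68.6 and 45.6 CPM. The groups overlapped, with *mEC1dup/dup* replicates 1 and 5 below every WT library. The log2 fold change of *Fgfr3* was -0.36 (SE 0.20, 95% interval -0.78 to 0.06, edgeR adjusted p = 0.405), and -0.21 without *mEC1dup/dup* replicate 1. The covariates gave -0.47 (SE 0.33, *Xist*) and -0.39 (SE 0.92, globin share). *mEC1dup/dup* replicate 1 library also had the lowest summed CPM of 5 chondrocyte genes (*Sox9*, *Col2a1*, *Col9a1*, *Acan* and *Matn1*), at 2050 against 4420 to 6039 in the other *mEC1dup/dup* libraries and 4553 to 7598 in WT. Of the 5 chondrocyte genes, 0 were called, and 4 had negative and 1 a positive log2 fold change. An unadjusted p under 0.05 in edgeR was reached by 2 of them, *Acan* (-0.69) and *Matn1* (-0.67), and by 16.2% of all genes. None of the 5 was at 0 in any library, and their part in the *Fgfr3* values was not tested. Exons of *Fgfr3* overlap an antisense gene over 13.1% of their length, and reads from that stretch cannot be told apart in unstranded libraries.

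*Fgfr4* (chr13:55300352-55316572, plus strand), known in embryonic muscle progenitors, had 33.3, 32.1, 39.1, 36.01 and 45.3 CPM in WT and 38.5, 33.3, 32.7, 33.4 and 44.8 CPM in *mEC1dup/dup*. The ranges nearly coincided, and the log2 fold change was -0.02 (95% interval -0.25 to 0.21, edgeR adjusted p = 0.945). With *Xist* as covariate the sign of *Fgfr4* turned, to 0.23 (SE 0.14), and with the globin share it was -0.01 (SE 0.48). The 4 myogenic progenitor genes (*Pax7*, *Myf5*, *Myod1* and *Myog*) summed to 142 to 229 CPM in WT and 145.3 to 218 CPM in *mEC1dup/dup*, and 0 of 4 were called. Relative to them, *Fgfr4* differed by -0.11 on the log2 scale (two-sided exact permutation p = 0.262, adjusted p = 0.389), and by -0.05 without WT replicate 3 and -0.06 without *mEC1dup/dup* replicate 1. Muscle fibre genes stood apart from this, at 975 to 1508 summed CPM in WT and 603 to 995 in *mEC1dup/dup*. All 6 had negative log2 fold changes and 2 were called lower. Relative to them *Fgfr4* differed by 0.53 (exact permutation p = 0.00794, the smallest that 252 arrangements allow, adjusted p = 0.0238). With *Fgfr4* itself at -0.02, this ratio mainly restates the lower muscle fibre sum, so its p-value is not a result about *Fgfr4*. The sign of the *Fgfr4* ratio depended on the stage of muscle used as denominator, while the level of *Fgfr4* itself overlapped between genotypes.

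*Fgfr3* and *Fgfbp1* lie on chromosome 5, as does *Hmx1*. *Fgfr3* ends 1.65 Mb before *Hmx1* and *Fgfbp1* starts 8.58 Mb after it. Whether the duplicated enhancer acts on either gene was not tested by these data.

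Levels of different genes were compared as CPM per kb of exon, using the union of all annotated exons of each gene, which understates genes with many long minor transcripts. *Fgfr1* was highest at 36.03 ± 3.16 CPM per kb in WT, followed by *Fgfr2* at 18.7 ± 2.11 and *Fgf18* at 10.6 ± 1.91 (SD, n = 5). These were separated in every library of both genotypes. Then came *Fgfr4* (8.40 ± 1.20), *Fgfr3* (7.70 ± 1.62), *Fgfbp1* (6.40 ± 1.48), *Fgf10* (6.18 ± 0.73), *Fgf7* (5.15 ± 0.34) and *Fgfbp3* (4.18 ± 0.96 CPM per kb), and neighbours in this series, *Fgf18* and *Fgfr4* included, had overlapping WT ranges. *Fgf9* was lowest at 1.55 ± 0.14 CPM per kb, apart from *Fgfbp3* in every library. In *mEC1dup/dup* the order changed at *Fgfbp1*, whose 4.06 ± 0.63 CPM per kb was below *Fgf10* (5.57 ± 0.56) in 5 of 5 libraries, while it was above *Fgf10* in 2 of 5 WT libraries. The *mEC1dup/dup* mean of *Fgfbp1* was also below that of *Fgf7* (4.39 ± 0.59), with overlapping ranges.

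**Figure D4:**
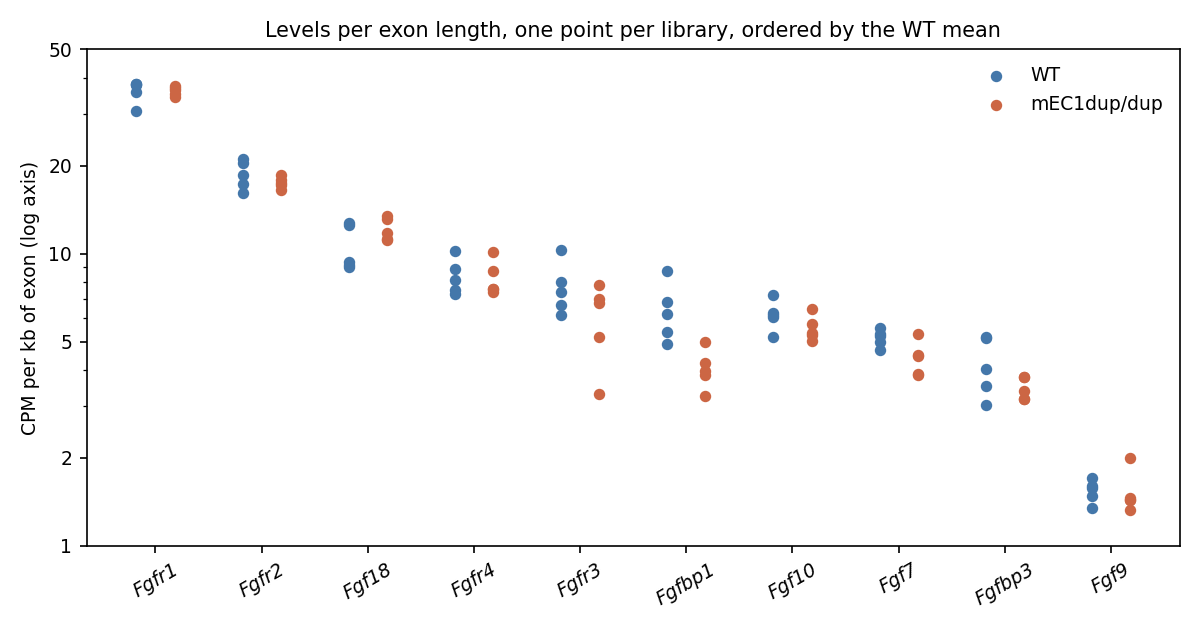
CPM per kb of exon (vertical log axis) of each gene in each library, WT in blue and *mEC1dup/dup* in orange, ordered by the WT mean from *Fgfr1* to *Fgf9*. *Fgfr1*, *Fgfr2* and *Fgf9* are apart from their neighbours, and the genes from *Fgf18* to *Fgfbp3* overlap in sequence in WT.

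As shares of the summed receptor level per kb, *Fgfr1* made up 50.9% ± 2.23 in WT and 53.2% ± 0.73 in *mEC1dup/dup*, *Fgfr2* 26.3% ± 1.16 and 25.8% ± 1.09, *Fgfr3* 10.9% ± 1.77 and 8.80% ± 2.46, and *Fgfr4* 11.9% ± 1.93 and 12.2% ± 1.94 (SD, n = 5 each). *Fgfr3* had the widest spread of shares, from 5.19% to 11.49% in *mEC1dup/dup*. Among the 4 ligands, *Fgf18* held 44.8% ± 3.27 of the summed level in WT (42.1% to 49.4%) and 51.4% ± 1.83 in *mEC1dup/dup* (49.3% to 54.2%), with the ranges just meeting. *Fgf10* held 26.4% and 23.6%, *Fgf7* 22.1% and 18.6%, and *Fgf9* 6.66% and 6.50%, in the same order. The summed ligand level was 23.4 ± 2.67 CPM per kb in WT and 23.7 ± 1.92 in *mEC1dup/dup*. These shares are descriptions and were not tested.

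To see which genes varied with each FGF gene among libraries of a genotype, Pearson's r was computed over all 10 libraries after removing the genotype means. The closest genes to *Fgfr3* were *Unc5c* (r = 0.985), *Sox5* (0.985) and *Wwp2* (0.982), of which *Sox5* encodes a transcription factor of chondrocytes. For *Fgfbp1* they were *Tdrd1* (0.947), *S100a14* (0.937) and *H2-K1* (0.936). *S100a14*, an epithelial calcium-binding protein gene, and *H2-K1* were called lower themselves, with log2 fold changes of -1.14 and -0.67. *Fgfr4* varied most closely with *Cd82* (0.959), *1110002E22Rik* (0.943) and *Chrnd* (0.941), the last of which encodes a subunit of the muscle acetylcholine receptor, and *1110002E22Rik* was called lower itself (log2 fold change -0.65). *Fgfr2* was closest to *Bmpr1b* (0.984), *Fgfr1* to *Six5* (0.980), *Fgf18* to *Aaas* (0.966), *Fgf9* to *Rps19-ps6* (0.961), *Fgf7* to *Zfp808* (0.947), *Fgfbp3* to *Frs3* (0.930) and *Fgf10* to *Pkmyt1* (0.926). With 10 libraries and all tested genes searched, values of this size are picked extremes, and the points share library and depth. Among the 10 genes themselves, the highest r was 0.80 for *Fgfr1* with *Fgfr2*, then 0.63 for *Fgf10* with *Fgf18*, and the lowest was -0.54 for *Fgf7* with *Fgfr3*.

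The wider pathway was read from 7 lists holding 78 genes, of which 68 were tested. Of these 68, 0 were called in either direction by edgeR, 37 had negative and 31 positive log2 fold changes, and 8 had an unadjusted p under 0.05 (5 negative and 3 positive). The median was -0.01. The shares over all tested genes were 1.81% called lower, 0.834% called higher and 16.2% with an unadjusted p under 0.05, so few calls would fall among 68 genes at those shares and a count of 0 says little about the pathway. DESeq2's Wald test called 2 of the 68 lower, *Sdc4* and *Mapk3*, and 0 higher, against 506 lower and 315 higher of all 16426 genes. Limma-voom called 0 of the 68. The edgeR fit without WT replicate 3 called *Mapk3* lower, 1 of 190 genes called lower among its 16592 tested. With so few calls, these counts cannot be read as a property of the pathway.

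Of 14 other secreted ligands, 8 passed the filter and 7 of these were negative. *Fgf2*, the most abundant by CPM, whose exons overlap other annotated genes (*Nudt6* on the opposite strand among them) over 44.9% of their length, had 15.7 ± 1.18 CPM in WT and 13.6 ± 1.28 in *mEC1dup/dup* (log2 fold change -0.21, edgeR adjusted p = 0.233). *Fgf6*, a ligand known in muscle, had 7.15 ± 1.46 and 4.97 ± 1.06 CPM (-0.52, adjusted p = 0.150 in edgeR), beside the muscle fibre sums given above. *Fgf20*, a ligand of hair placodes and the inner ear, was the only one of the 8 with a positive log2 fold change, from 0.62 ± 0.24 to 1.03 ± 0.36 CPM (0.73, edgeR adjusted p = 0.299), on 5 to 29 counts per library and with 16.1% of its exon length overlapped by opposite-strand genes. *Fgf4* had the most negative value (-0.58, SE 0.52) on 4 to 27 counts. *Fgf1* (-0.40), *Fgf3* (-0.20), *Fgf5* (-0.09) and *Fgf16* (-0.003, with 13.4% of its exon length overlapped) were not called either. The other 6, *Fgf8*, *Fgf15*, *Fgf17*, *Fgf21*, *Fgf22* and *Fgf23*, had at most 19 counts in any library and did not pass the filter. Without a filter on low counts, edgeR called 0 of 77 pathway genes, these 6 included.

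Of the 4 intracellular FGF homologous factors, which bind sodium channels rather than receptors, *Fgf13* was highest with 34.1 ± 18.9 CPM in WT and 29.5 ± 9.06 in *mEC1dup/dup*, and had the most negative log2 fold change (-0.21). The most positive was that of *Fgf14* (0.46), on 11 to 28 counts and with 54.1% of its exon length overlapped by opposite-strand genes, *Itgbl1* among them. The decoy receptor gene *Fgfrl1* had 84.6 ± 7.97 CPM in WT and 82.9 ± 7.21 in *mEC1dup/dup* (-0.03), and the Klotho genes *Kl* and *Klb*, coreceptors of endocrine FGFs, had at most 18 counts and did not pass the filter. None of these genes was called.

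Heparan sulfate carries FGFs on the cell surface, and 9 of its 10 listed proteoglycan genes were tested. *Gpc3* was the most abundant by CPM, at 792 ± 54.4 in WT and 838 ± 29.97 in *mEC1dup/dup* (log2 fold change 0.08). *Sdc4*, a syndecan, had 71.4 ± 5.30 and 61.8 ± 4.54 CPM (-0.21, edgeR adjusted p = 0.0955), and *Gpc2*, a glypican, 12.4 ± 1.62 and 15.9 ± 2.26 CPM (0.35, edgeR adjusted p = 0.134). These were the largest differences of the list and neither passed in edgeR. The exons of *Gpc2* overlap a gene on the same strand over 55.3% of their length, so its value is uncertain. The 12 enzymes that build or edit the chains all lay between -0.06 (*Hs6st2*) and 0.08 (*Ext1*), and *Sulf2*, the most abundant by CPM, was at 0.04.

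In the ERK cascade the 18 adaptor and kinase genes lay between -0.16 (*Mapk3*, which encodes ERK1; edgeR adjusted p = 0.0632) and 0.08 (*Sos1*). The transcriptional targets and feedback inhibitors, which rise with FGF-ERK signalling in many tissues, had a median of -0.04 over 16 tested genes. They ran from -0.15 for *Spry4* (edgeR adjusted p = 0.310) to 0.14 for *Spred3* (adjusted p = 0.465 in edgeR), with *Flrt2*, the most abundant by CPM, at 0.06. *Etv4*, *Etv5* and *Dusp6*, commonly used as readouts of FGF signalling, had log2 fold changes of -0.06, -0.09 and -0.08 and were not called. Genes on the opposite strand overlap 23.0% of the exon length of *Dusp6*.

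**Figure D5:**
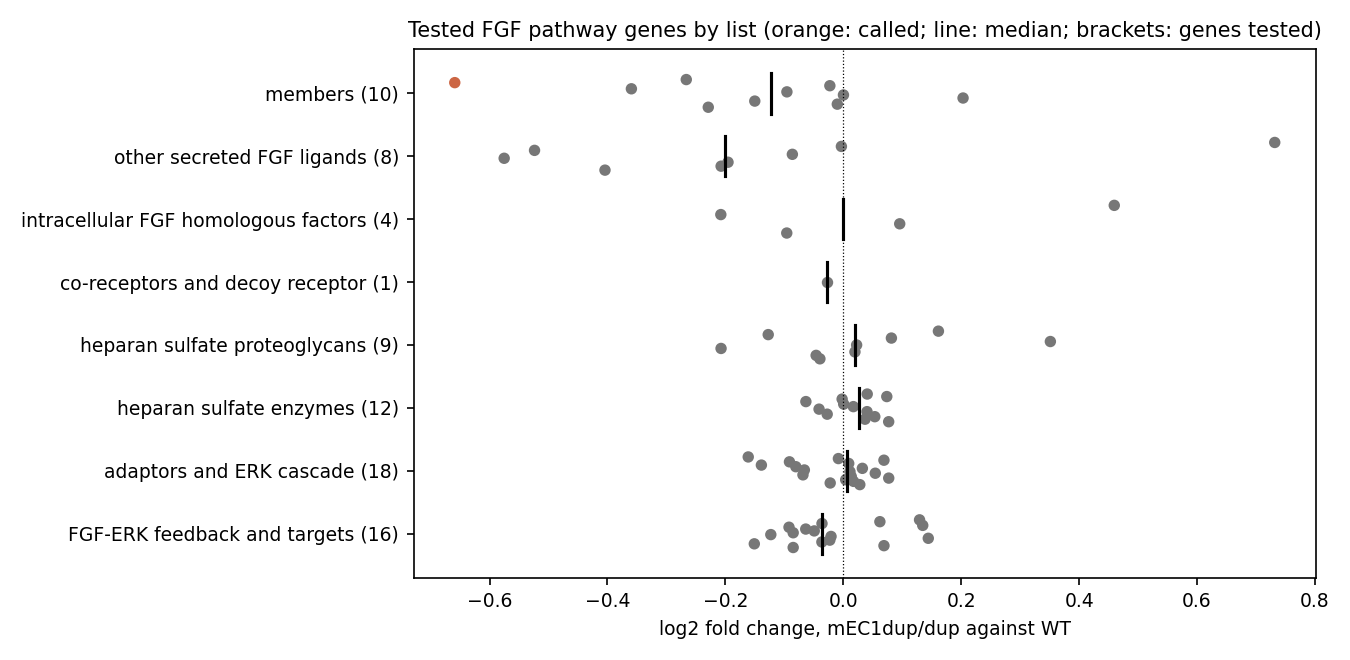
Log2 fold change in *mEC1dup/dup* against WT (horizontal axis) of each tested gene (points; vertical scatter only separates them), for the 10 FGF genes in the top row and the 7 pathway lists below, with the number tested in brackets and a black line at each median. Only *Fgfbp1* (orange) is called, and the enzyme, cascade and feedback genes lie between -0.16 and 0.14.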

How the data were processed

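Bulk RNA-seq of E14.5 pinna from 5 WT and 5 *mEC1dup/dup* embryos was analysed. The authors used fastp for trimming, STAR for alignment to GRCm39 and featureCounts for counting, and the deposited values are their raw counts per gene. The labels and the paper's methods name different library kits, both unstranded. Columns were mapped to samples through the labels, and the columns were not copies of each other (chi-square per degree of freedom between same-group libraries 2.56 to 18.2).

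Symbols and positions came from the GENCODE annotation of GRCm39, which matched 49355 of 53465 genes; the unmatched genes held 0.111% of the counts. Counts were filtered by edgeR's filterByExpr, scaled by TMM and tested by edgeR 4.0.16 (glmQLFit, glmQLFTest) in R 4.3.3 with genotype as the only term and Benjamini-Hochberg adjustment. SE is the log2 fold change divided by the square root of F. Log2 CPM used a prior count of 2. The 3 within-library ratios were tested by two-sided exact permutation of 252 arrangements. Alternatives used DESeq2 1.42.0, limma 3.58.1, other scalings, filters and thresholds, the replicate block, *Xist* or globin share as a covariate, and leaving out each library. The fit was tested on simulated counts. Precision is least for genes with few counts.

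The 10 genes, pathway lists and marker lists were chosen with earlier results of these data known. Named in the text are all 10 genes, the 3 genes most correlated with each (the first alone for some), every called pathway gene, every secreted ligand past the filter, and the most abundant, most positive and most negative gene of each list; *Etv4*, *Etv5*, *Dusp6* and the untested genes were named in addition, as were markers, and 1 gene that the rule takes is not reported here. Of the 78 pathway genes, 77 were matched to a row by symbol. WT and *mEC1dup/dup* libraries share replicate numbers, but their deviations correlated at -0.0558 to 0.345, not all over 0.1, so the numbers were not treated as pairs. The single-cell and enhancer experiments of the study are not part of these results, and what the study reports from them is quoted only for *Fgf18*. Plots used matplotlib 3.10.9.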

Additional observations from a re-analysis of the deposited data

Results flagged for a closer look

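Of 28 groups of 5 values checked (the log2 CPM and ratios of the FGF genes in each genotype, among them), 1 held a library far from the others, where chance alone flags about 1 in 20 groups. It was *Fgf9* in *mEC1dup/dup* replicate 4, with a log2 CPM of 3.53 against 2.94 to 3.08 in the other 4 *mEC1dup/dup* libraries. The gap was 0.767 of the range of the group.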

How the results depend on the processing

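Of 258 recomputed values of the 10 log2 fold changes and 3 ratios, 221 kept their direction and their side of the threshold. The negative log2 fold changes of *Fgf7*, *Fgfr3* and *Fgfbp3* kept their sign in every alternative. *Fgfbp1* kept its call with DESeq2 size factors, upper quartile or total count scaling, DESeq2's Wald test, both filters on low counts and the replicate block, and lost it with limma-voom (log2 fold change -0.64, adjusted p = 0.0501), *Xist* as a covariate (-0.69), the globin share as a covariate (0.54) and an adjusted p of at most 0.01 (-0.66), each of which left 0 of the 10 genes called lower. Genes called lower and higher over the whole table numbered 297 and 137, against 506 and 315 with the Wald test, 1 and 2 with *Xist*, 0 and 0 with the globin share, and 62 and 16 at an adjusted p of at most 0.01. The globin share does not overlap between the genotypes and *Xist* overlaps only through *mEC1dup/dup* replicate 5, and the cause of these shifts was not tested. Log2 fold changes that turned sign were those of *Fgfr1* (-0.00267 with upper quartile scaling, -0.00279 with at least 10 counts in every library, -0.0119 with *Xist*), *Fgf9* (0.00145 with total counts), *Fgfr4* (0.23 with *Xist*) and, with the globin share, *Fgf9* (0.20), *Fgf10* (0.11), *Fgf18* (-0.33), *Fgfr2* (0.22) and *Fgfbp1* (0.54). The ratio of *Fgfr4* turned to 0.53 with muscle fibre genes as denominator. With the replicate block, 487 genes were called lower, the log2 fold change of *Fgfbp1* was -0.65 (edgeR adjusted p = 0.0059), that of *Fgfr3* was -0.39 (adjusted p = 0.0761, edgeR, not called) and *Fgfbp1* was the only one of the 10 called; same-numbered libraries share only a number. Leaving out each library gave 120 to 476 genes called lower, 34 to 179 called higher and 0 to 1 of the 10 genes called lower. The lowest counts came without *mEC1dup/dup* replicate 3 and the highest without WT replicate 4. Ranges over these fits were -0.12 to 0.0371 for *Fgf9*, -0.055 to 0.0232 for *Fgfr1*, -0.11 to 0.0587 for *Fgfr4*, -0.74 to -0.52 for *Fgfbp1*, -0.47 to -0.21 for *Fgfr3*, -0.21 to -0.08 for *Fgf10*, -0.15 to -0.05 for *Fgfr2*, -0.36 to -0.18 for *Fgfbp3*, -0.32 to -0.20 for the ratio of *Fgfbp1* to pan-epithelial genes, -0.16 to -0.05 for that of *Fgfr4* to progenitor genes and 0.02 to 0.13 for that of *Fgf10* to *Fgf7*. Depth limits the secreted ligands with few counts.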
